A study of Mus musculus with 12 samples.

Results

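The cells described here were 111 barcodes of mouse aorta that carried transcripts of fibroblast collagens and proteoglycans together with Tnfrsf11b and with Spp1 or Ltbp2. They were 111 of 38072 barcodes that passed the limits on quality, and of 73666 deposited barcodes. A barcode was a member when it held more than 200 genes, more than 1000 unique molecular identifiers (UMIs, each standing for 1 captured transcript) and under 10% mitochondrial UMIs, when at least 2 of the 5 genes Dcn, Lum, Col1a1, Col1a2 and Col3a1 were detected, when Tnfrsf11b had at least 1 UMI and Spp1 and Ltbp2 together had at least 2, and when Ptprc, Tyrobp and Pecam1, which mark leukocytes and endothelial cells, had none. Barcodes that met all of these limits except those on Tnfrsf11b, Spp1 and Ltbp2 were taken as other stromal barcodes. The members were thus chosen by their UMIs of these genes, and those values are a description. There were 22 members in the library labelled Healthy, 16 in the AS library, 38 in the MTZ-treated library and 35 in the MTZ-preventive library, and rows of 4 values below keep that order.

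The study examined methazolamide (MTZ), a carbonic anhydrase inhibitor, in atherosclerosis of ApoE-/- mice. These mice lack an apolipoprotein that serves the clearance of remnant particles, and form plaques on a fatty diet. All groups were described as male ApoE-/- mice on the C57BL/6J background, aged 8 weeks at the start and kept on their regimen for 24 weeks. Normal chow and saline were given to the Healthy group. A high-fat diet was fed to the remaining 3 groups, with 1% cholesterol and 10% fat, with saline in AS, with MTZ at 25 mg/kg by mouth for the last 12 weeks in MTZ-treated, and with the same dose throughout in MTZ-preventive; the sample labels spell the drug methoxazolamide. Aortas of 6 mice were pooled for each library, so there was 1 library per group, no spread between mice and no test between groups. The intervals given below cover counting error only, with a confidence level of 95%. Passing barcodes of the 4 libraries held 35008819, 3870386, 16740509 and 43389268 UMIs, and the members among them held 193333, 93813, 301355 and 388621 UMIs. Levels below are UMIs divided by the total UMIs of the same barcodes and scaled as CPM, which are not corrected for gene length and are compared only for the same gene.

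Tnfrsf11b encodes osteoprotegerin, a secreted decoy receptor that binds the osteoclast factor RANKL and the death ligand TRAIL, and that is known to restrain arterial calcification in mice. Spp1 encodes osteopontin, an acidic matrix protein that binds integrins and CD44, is made by macrophages and by smooth muscle cells that have left the contractile state, and inhibits crystal growth. Ltbp2 encodes a fibrillin-associated protein of elastic microfibrils that, unlike its relatives, does not bind latent TGF-beta.

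A barcode could become a member through Spp1 or through Ltbp2, and the members divided along these genes. The sequences upstream of their start sites are shown because the 2 genes mark the routes into the group. Both are from RefSeq (GRCm38.p6), 250 bases that end at the base before the start, read 5' to 3' on the strand of the gene. Spp1 has 2 starts in the table, and the window of the upstream one lies at chr5:104434861-104435110 on the plus strand, while that of Ltbp2 lies at chr12:84876492-84876741 on the minus strand. Capitals mark a RUNX-type motif (TGTGGT, read here on the reverse strand as ACCACA, 128 bases before the start) and a TATA-type motif (TATAAA, 211 bases before the start).
Spp1: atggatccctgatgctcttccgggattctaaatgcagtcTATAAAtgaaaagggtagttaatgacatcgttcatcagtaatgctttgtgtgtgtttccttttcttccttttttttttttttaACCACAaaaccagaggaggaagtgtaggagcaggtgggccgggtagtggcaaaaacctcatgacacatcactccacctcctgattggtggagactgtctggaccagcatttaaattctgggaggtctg
Ltbp2: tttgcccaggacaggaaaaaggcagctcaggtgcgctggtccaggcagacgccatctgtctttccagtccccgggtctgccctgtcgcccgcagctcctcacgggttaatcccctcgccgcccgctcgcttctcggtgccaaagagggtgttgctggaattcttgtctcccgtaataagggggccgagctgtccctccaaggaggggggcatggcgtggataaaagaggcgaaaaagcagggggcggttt
Neither of these motifs was found on either strand in the Ltbp2 window or in that of the second Spp1 start, and the AP-1-type motif TGANTCA was in none of the 3. The E-box CANNTG, not marked here, was in all 3, with 1 match in the Spp1 window shown and 2 in that of Ltbp2. Of 32851 windows of mouse promoters of the same length, 14.05% held TGTGGT, 12.4% held TATAAA, 6.75% held TGANTCA and 66.2% held CANNTG on at least 1 strand, so these matches are a description of the letters only. The window of Spp1 had a GC content of 43.6% and that of Ltbp2 61.6%.

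Several features of the libraries bear on every value. Apoe, which the mice should lack, stood at 677 CPM in all passing barcodes of the library labelled Healthy, against 11.4 CPM in AS, 12.6 CPM in MTZ-treated and 8.46 CPM in MTZ-preventive. In the members the Apoe level was 1448 CPM in the library labelled Healthy (280 UMIs in 19 of 22 barcodes), and the other libraries held 2, 1 and 0 UMIs of it. The library labelled Healthy therefore went against its label for genotype, and diet and genotype cannot be told apart in any comparison with it. Depth also differed, since members of the 4 libraries had medians of 7474.5, 1382, 6088 and 9211 UMIs, whereas other stromal barcodes had medians of 1628, 1236, 1658 and 1704 UMIs. Members were deeper than the other stroma in each library, and least so in AS.

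Some members had nearly the same counts as other members. With a chi-square per gene under 1.5 as the limit, 20 members fell into 4 sets: AS had sets of 4 and 3 barcodes, MTZ-treated a set of 6 and MTZ-preventive a set of 7, and the library labelled Healthy had none. These barcodes were shallow, with 1024 to 1560 UMIs, and their barcode sequences differed at 9 or more bases. The median chi-square per gene within sets was 1.11, 1.10 and 1.09 in these 3 libraries, while pairs of members outside sets had medians of 8.94, 6.80 and 7.18, a separation that the limit itself sets. Among pairs of shallow barcodes of the other stroma, 2.83%, 2.11% and 5.26% lay under the limit. Counted once per set, the members came to 95. A common source of the barcodes in a set was not tested, and counts and ratios that moved most without them are given both ways. Barcode sequences also recurred between libraries: 24 to 305 passing barcodes were shared by any 2 libraries, and 5 members, 3 of MTZ-preventive and 2 of MTZ-treated, were among them.

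Members made up the largest share of stromal barcodes in AS, with 2.94% (16 of 545, exact Clopper-Pearson interval 1.69 to 4.72%). The share was 1.40% in MTZ-treated (38 of 2716, 0.992 to 1.92%), 0.753% in the library labelled Healthy (22 of 2923, 0.472 to 1.14%) and 0.632% in MTZ-preventive (35 of 5534, 0.441 to 0.879%). Compared with AS, the share in MTZ-treated was 0.477 times as large (0.259 to 0.915) and that in MTZ-preventive 0.215 times as large (0.116 to 0.417). The order of AS, MTZ-treated and MTZ-preventive was the same with each set counted once (2.04, 1.22 and 0.525%) and after each barcode was thinned to 1000 UMIs (1.62, 0.470 and 0.136%). The intervals of AS and MTZ-treated overlapped, however, with each set counted once (1.02 to 3.62% and 0.839 to 1.71%). After thinning they also overlapped (0.745 to 3.06% and 0.243 to 0.820%). Over all passing barcodes, the share in MTZ-treated was 0.725 times that in AS with an interval of 0.394 to 1.39, so that this pair was not separated beyond counting error on that denominator. The share in the library labelled Healthy and that in MTZ-preventive had overlapping intervals, and thinning left 1 member in the former (0.0333%). How many cells a library held per mouse and how much RNA each cell gave cannot be told apart here.

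**Figure D1:**
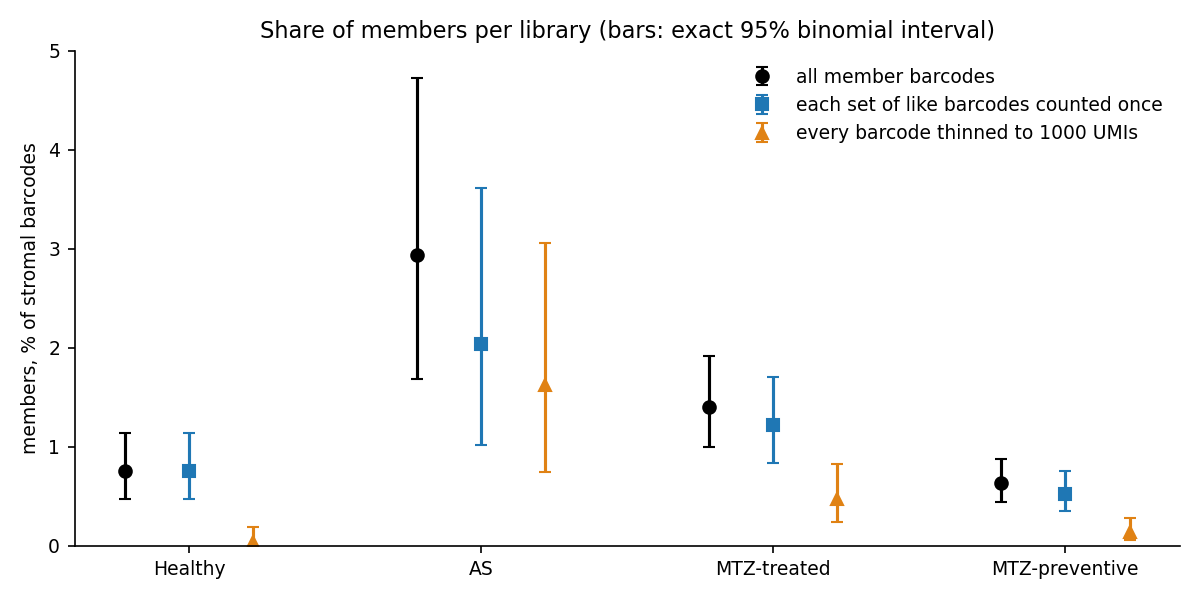
Share of members among stromal barcodes (y axis, %) in each of the 4 libraries (x axis), for all members (circles), with each set of like barcodes counted once (squares) and after thinning to 1000 UMIs (triangles); bars are exact 95% binomial intervals. AS lies highest in all 3 series, at 2.94, 2.04 and 1.62%, and MTZ-preventive lies at 0.632, 0.525 and 0.136%.

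The limits of the rule passed through a continuous range of counts. With exactly 1 Tnfrsf11b UMI, just inside, there were 8, 7, 12 and 20 members. With exactly 2 UMIs of Spp1 and Ltbp2 together there were 10, 2, 5 and 4. Just outside, 12, 2, 13 and 11 stromal barcodes held Tnfrsf11b with 1 UMI of Spp1 or Ltbp2, and 83, 98, 85 and 133 held at least 2 UMIs of these but no Tnfrsf11b. A further 12, 6, 14 and 22 barcodes met the rule apart from a UMI of Ptprc, Tyrobp or Pecam1.

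Spp1 did not mark most of the members. No member of the library labelled Healthy had an Spp1 UMI (0 of 22), while AS had 12 of 16 with such a UMI, MTZ-treated 24 of 38 and MTZ-preventive 14 of 35, so that 61 of 111 had none and entered through Ltbp2. At least 10 Spp1 UMIs were present in 9 members of AS, 20 of MTZ-treated and 11 of MTZ-preventive, or in 5, 14 and 4 without the barcodes in sets. A name taken from Spp1 therefore covered only some of these barcodes, and the labels give the aorta and no plaque dissection. Per barcode, Spp1 ran from 0 through a median of 13 to 3104 UMIs in AS, from 0 through 18 to 1208 in MTZ-treated, and from 0 through 0 to 275 in MTZ-preventive. Tnfrsf11b ran from 1 UMI to highest values of 11, 20, 25 and 11 UMIs, with medians of 2, 2, 2.5 and 1. Ltbp2 was detected in 22, 13, 33 and 32 members, with medians of 3, 2, 3.5 and 3 UMIs and highest values of 20 to 22.

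**Figure D2:**
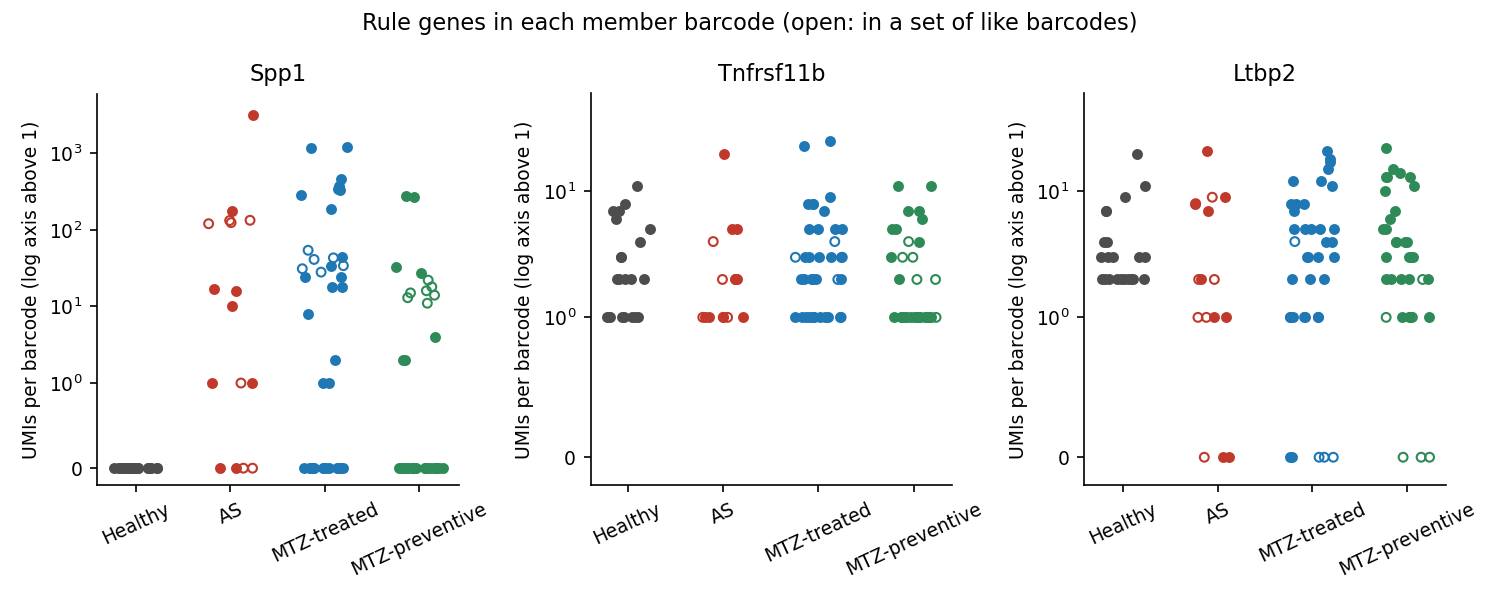
UMIs of Spp1, Tnfrsf11b and Ltbp2 (y axes, log scale above 1) in each member barcode, by library (x axes); each point is 1 barcode and open points belong to a set of like barcodes. All 22 members of the library labelled Healthy lie at 0 for Spp1, while AS reaches 3104, MTZ-treated 1208 and MTZ-preventive 275, and Tnfrsf11b and Ltbp2 overlap among the 4 libraries.

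Summed over members, the level of Spp1 was 0, 40858, 15775 and 1848 CPM. A large part of the AS value came from 1 barcode, AS member 2, with 3104 of 3833 UMIs (81.0%). Other stromal barcodes stood at 19.5, 1754, 92.5 and 44.8 CPM of Spp1. Spp1 UMIs were widespread in AS, where 28.7% of endothelial and 25.5% of other stromal barcodes had a Spp1 UMI, beside 85.8% of macrophages, the cells known for it. Their median depths were 1412.5, 1236 and 1443 UMIs. The endothelial share was 0.179% in the library labelled Healthy, 3.24% in MTZ-treated and 1.40% in MTZ-preventive. Whether the UMIs in endothelial and other stromal barcodes came from free RNA was not tested. Low counts of Spp1 in AS members lie within what barcodes of other types carried.

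Tnfrsf11b stood at 372, 544, 528 and 244 CPM in members of the library labelled Healthy, AS, MTZ-treated and MTZ-preventive, and at 18.9, 8.34, 11.0 and 9.82 CPM in other stroma. A Tnfrsf11b UMI was found in 0.446 to 0.870% of endothelial barcodes across the 4 libraries and in 0% of macrophages, and in 1.89 to 4.74% of smooth muscle barcodes. Ltbp2 stood at 502, 767, 660 and 463 CPM in members and 42.1, 202, 51.2 and 45.7 CPM in other stroma. The rule itself sets these contrasts, and they are given as a description.

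Members with many Spp1 UMIs and members with none carried different sets of transcripts. The groups of at least 10 and of 0 Spp1 UMIs were chosen after the values were seen, barcodes in sets were left out, and Spp1 is fixed by the grouping, as is a count of at least 2 Ltbp2 UMIs in members with no Spp1. In MTZ-treated, 14 barcodes were compared with 14, with median depths of 7320 and 7943.5 UMIs. In MTZ-preventive it was 4 with 21, with 8761.5 and 11596 UMIs, and in AS 5 with 2. Of all genes with at least 100 CPM in either group, 10.8% were at least 2-fold higher and 12.2% at least 2-fold lower with Spp1 in MTZ-treated, and 22.8% and 14.8% in MTZ-preventive. In AS, these were 17.1% and 40.2%, and no gene or list of AS is compared here. Each value was recomputed without each barcode in turn, an alternative added after the values were seen. Many of the values that rested on 1 barcode, but not all, are also given without it. All 2-fold counts here and below compare CPM with 10 added to each value.

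Cartilage matrix genes were higher in sum with Spp1 in MTZ-treated, but a few barcodes held most of their UMIs. There the 20 genes of this list summed to 2361 CPM with Spp1 and 126 CPM without (18.8-fold, 11.5 to 32.7), and 4 of 4 that reached 100 CPM were at least 2-fold higher, with a median log2 difference of 3.51 against 0.01 over all genes. MTZ-treated member 14 held 127 of the 286 UMIs of the list with Spp1, and without it the ratio was 12.1-fold (7.34 to 21.3). Members 25 and 29 held a further 57 and 52. By contrast, members 12, 19 and 20 held 0 and members 3, 4, 7 and 18 held 1 each, although all had at least 10 Spp1 UMIs. Members without Spp1 held at most 5. In MTZ-preventive the sums were 339 and 168 CPM (2.02-fold, 0.985 to 3.83), not beyond counting error. Col2a1, the main collagen of hyaline cartilage, had 152 UMIs with Spp1 and 0 without in MTZ-treated, at least 56.5-fold higher by a floor of 3 UMIs over the group. Over all members Col2a1 was found in 0 of 22 barcodes of the library labelled Healthy, 2 of 16 of AS, 5 of 38 of MTZ-treated and 10 of 35 of MTZ-preventive, and 1 barcode held 63 of its 84 UMIs in AS and 53.6% of them in MTZ-treated. In MTZ-preventive, 12 of its 25 UMIs, in 6 of the 10 barcodes, came from the set of like barcodes. Acan, the aggregating proteoglycan of cartilage, was 405 against 37.0 CPM in MTZ-treated (10.9-fold, 4.38 to 35.2), with UMIs in 13 of 38 members. Sox9, the transcription factor that drives both genes in chondrocytes, was 330 against 37.0 CPM in MTZ-treated (8.93-fold, 3.52 to 29.0). Leaving out 1 barcode at a time gave 7.78- to 51.3-fold for Acan and 7.73- to 39.1-fold for Sox9, since 4 of the 5 UMIs of each without Spp1 were in 1 barcode. In MTZ-preventive it was 537 against 52.8 CPM, but 17 of the 19 Sox9 UMIs with Spp1 were in member 31, and without it the ratio was 1.74-fold (0.195 to 7.32).

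Lgals3, the lectin galectin-3, was higher with Spp1 in both MTZ libraries, with 2361 against 333 CPM in MTZ-treated (7.09-fold, 5.17 to 9.94) and 2093 against 444 CPM in MTZ-preventive (4.71-fold, 3.51 to 6.28). Without MTZ-preventive member 31, which held 48 of the 74 Lgals3 UMIs with Spp1 there, the latter was 2.68-fold (1.70 to 4.10). Slurp1, a small secreted protein of the Ly6 family, was 1106 against 59.2 CPM in MTZ-treated (18.7-fold, 9.22 to 44.2), and 11.01-fold (5.29 to 26.5) without member 31 of that library, which held 63 of 134 UMIs. In MTZ-preventive, 62 of the 64 Slurp1 UMIs with Spp1 were in member 31, and without it 91.8 against 21.8 CPM remained (4.22-fold, 0.428 to 22.2). Fn1, fibronectin, was 1.62-fold (1.47 to 1.79) higher in MTZ-treated and 1.94-fold (1.75 to 2.15) in MTZ-preventive, and without member 31 the latter was 1.16-fold (0.984 to 1.35). Many of the values with Spp1 in MTZ-preventive thus rested on 1 barcode.

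The rule asked for Tnfrsf11b in all members, so the values of the other rule genes are a description. Tnfrsf11b was 768 against 259 CPM in MTZ-treated (2.96-fold, 1.99 to 4.51). In MTZ-preventive it was 368 against 168 CPM (2.19-fold, 1.10 to 4.07), and without member 17, which held 7 of the 13 UMIs, 1.15-fold (0.404 to 2.67). Ltbp2 was 1.06-fold (0.778 to 1.45) in MTZ-treated. In MTZ-preventive Ltbp2 was 1.94-fold (1.22 to 2.98), with 22 of 26 UMIs in member 31, and 0.484-fold (0.130 to 1.27) without it. Immediate early genes, which respond within minutes to stimulation and to tissue dissociation, summed to 1.85-fold more with Spp1 in MTZ-treated, with 8 of 11 at least 2-fold higher, and without member 24 to 1.44-fold (1.28 to 1.62). They summed to 2.57-fold more in MTZ-preventive, and to 1.13-fold (0.981 to 1.29) without member 18. The part of dissociation in the difference was not tested.

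Adventitial fibroblast genes were lower with Spp1. This list of 10, which marks the outer fibroblasts of the vessel, summed to 768 CPM with Spp1 and 8442 CPM without in MTZ-treated (11.0-fold lower, 8.89 to 13.7) and to 594 and 8526 CPM in MTZ-preventive (14.4-fold lower, 9.37 to 23.2). Of the genes tested, 7 of 7 in MTZ-treated and 6 of 7 in MTZ-preventive were at least 2-fold lower. Leaving out each barcode in turn gave 9.53- to 13.5-fold and 11.3- to 31.0-fold. By barcode the list took at most 0.206% of UMIs in MTZ-treated members with at least 10 Spp1 UMIs and at most 0.111% in those of MTZ-preventive, or 0.239% with the set of like barcodes. In members without Spp1 it took 0.0180 to 2.40% (median 0.498%) in MTZ-treated and 0.0195 to 1.699% (median 0.527%) in MTZ-preventive. The ranges thus overlapped at the low end. Members of the library labelled Healthy ran from 0 to 3.10% with a median of 0.220%.

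**Figure D3:**
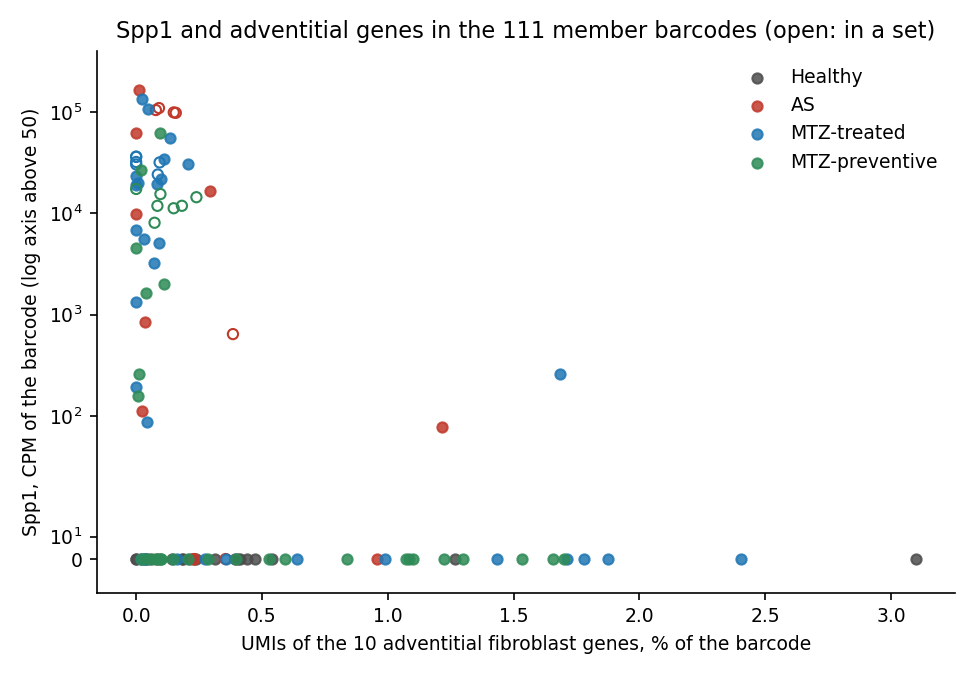
Spp1 (y axis, CPM of the barcode, log scale above 50) against the UMIs of the 10 adventitial fibroblast genes (x axis, % of the barcode) in the 111 members, coloured by library; open points belong to a set of like barcodes. Outside sets, barcodes with at least 10 Spp1 UMIs lie under 0.3% on the x axis in the 2 MTZ libraries and in AS, while barcodes at 0 Spp1 reach 2.40% in MTZ-treated and 3.10% in the library labelled Healthy.

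Clec3b and Pi16, both on this list, were among the genes lower with Spp1. Clec3b had 0 UMIs with Spp1 and 456 without in MTZ-treated (at least 136-fold lower) and 0 and 781 in MTZ-preventive (at least 28.6-fold lower). Pi16 was 33.0 against 999 CPM in MTZ-treated (30.2-fold lower, 11.5 to 113) and had 0 against 263 UMIs in MTZ-preventive (at least 9.63-fold lower). Igfbp6 was 297 against 5305 CPM in MTZ-treated (17.8-fold lower, 12.8 to 25.7) and had 0 against 1529 UMIs in MTZ-preventive (at least 56.0-fold lower). Igfbp6, which binds insulin-like growth factors, is on none of the lists and was named after its values were seen.

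Mfap5, Fbn1 and Eln were picked from their lists after their values were seen. Of the list of LTBP, TGF-beta and microfibril genes that holds Fbn1 and Eln, 8 of 14 were at least 2-fold lower with Spp1 and 3 higher in MTZ-treated, and 6 of 12 lower and 2 higher in MTZ-preventive. Emilin1, a glycoprotein of elastic fibers, was 3.16-fold (1.19 to 9.79) in MTZ-treated, and Tgfb1 4.17-fold (1.84 to 8.85) in MTZ-preventive. Mfap5, a microfibril glycoprotein, was 206 against 3647 CPM in MTZ-treated (17.7-fold lower, 11.8 to 27.6) and had 0 against 1280 UMIs in MTZ-preventive (at least 46.9-fold lower). Fbn1, fibrillin-1, was 99.1 against 2249 CPM (22.7-fold lower, 12.8 to 44.4) and 56.6 against 1492 CPM (26.4-fold lower, 7.26 to 218). Leaving out 1 barcode at a time in MTZ-treated left Pi16 at least 18.3-fold, Igfbp6 13.8-fold, Mfap5 15.2-fold and Fbn1 13.2-fold lower. Eln, elastin, was 28.3-fold lower (15.2 to 59.6) in MTZ-treated. Without member 6, which held 212 of the 316 UMIs without Spp1, it was 10.5-fold lower (5.48 to 22.5). In MTZ-preventive, however, Eln was 113 against 106 CPM, with an interval of the ratio of 0.276 to 3.002. That ratio ran from 0.377- to 1.74-fold with 1 barcode left out at a time. The 10 fibroblast markers outside the rule summed to 3.69-fold less (3.25 to 4.20) in MTZ-treated and 7.96-fold less (6.06 to 10.7) in MTZ-preventive. The Wnt modulators, secreted antagonists and carriers of Wnt proteins, summed to 5.37- and 5.55-fold less. They summed to 7.76- and 25.4-fold less without members 12 and 8, and to 4.09- and 4.21-fold less without members 15 and 23. By gene, 3 of 5 were at least 2-fold lower and 1 higher in MTZ-treated, and 2 of 5 lower and 1 higher in MTZ-preventive. Frzb was higher, with 347 against 81.4 CPM (4.26-fold, 2.16 to 9.18) and 311 against 46.6 CPM (6.67-fold, 2.77 to 15.6). With 1 barcode left out at a time, its ratio was 2.96- to 8.33-fold in MTZ-treated and 2.56- to 13.9-fold in MTZ-preventive. Complement genes summed to 4.09- and 2.78-fold less. They summed to 6.60- and 6.61-fold less without members 3 and 18, and to 3.79- and 2.48-fold less without members 28 and 23.

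Contractile smooth muscle genes did not separate the 2 kinds of members in MTZ-treated, with 2724 against 2656 CPM (1.03-fold, 0.881 to 1.19). Leaving out 1 barcode at a time gave 0.754- to 2.18-fold there. In MTZ-preventive they were 1.39-fold (1.20 to 1.60), but member 18 held 188 of the 215 UMIs with Spp1, and without it the ratio was 0.22-fold (0.144 to 0.321), while without member 22, with 571 of the 1410 UMIs without Spp1, it was 2.28-fold (1.95 to 2.65). The genes of modulated smooth muscle, which are switched on as smooth muscle cells of plaques leave the contractile state, summed to 24412 against 14723 CPM (1.66-fold, 1.57 to 1.76) in MTZ-treated and 1.27-fold (1.20 to 1.36) without member 14. In MTZ-preventive the ratio was 1.09-fold (1.01 to 1.18), and 0.883-fold (0.794 to 0.98) without member 31. Within MTZ-treated, 6 of 15 of them were at least 2-fold higher and 4 at least 2-fold lower. Mgp, the matrix inhibitor of vessel calcification, was 1.08-fold (0.996 to 1.18) in MTZ-treated and 2.67-fold (2.45 to 2.91) in MTZ-preventive. With 1 barcode left out at a time, Mgp was 0.797- to 1.83-fold in MTZ-treated and 1.51- to 6.56-fold in MTZ-preventive. The 4 MTZ-preventive barcodes limit what that library can show.

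**Figure D4:**
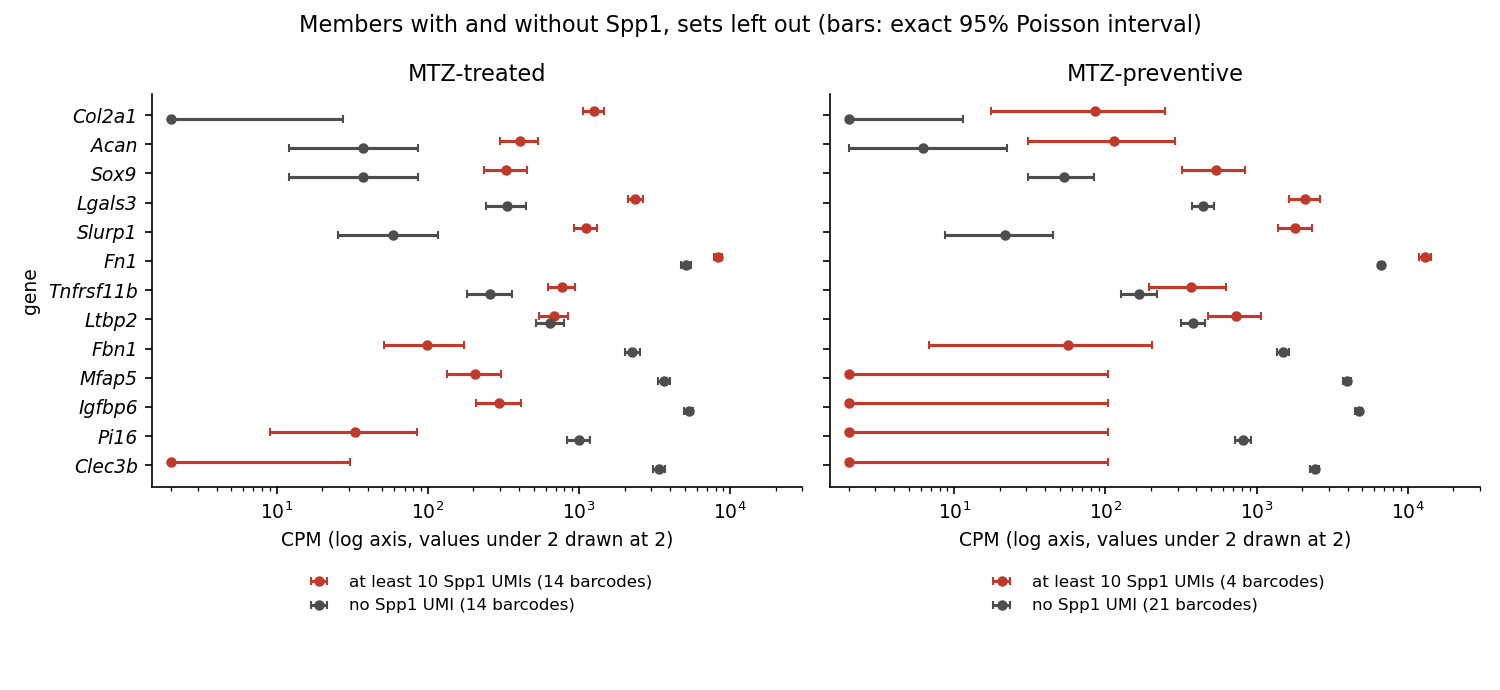
Levels of 13 genes (x axis, CPM, log scale, values under 2 drawn at 2) in members with at least 10 Spp1 UMIs (red) and with none (grey), in MTZ-treated (left, 14 and 14 barcodes) and MTZ-preventive (right, 4 and 21 barcodes), with exact 95% Poisson intervals. Lgals3, Slurp1 and Sox9 lie higher with Spp1 in both panels, with 62 of 64 Slurp1 and 17 of 19 Sox9 UMIs of the right panel's red points in 1 barcode, and Fbn1, Mfap5, Igfbp6, Pi16 and Clec3b lie lower.

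Members were then set beside the other stromal barcodes of the same library. Both were drawn from the same counts by the rule, so these differences are a description. AS had 16 members, under the 20 asked of a library for this comparison, and is shown beside the others. Of genes with at least 100 CPM on either side, 9.12, 11.6, 7.38 and 11.2% were at least 2-fold higher and 5.16, 9.11, 9.02 and 9.15% at least 2-fold lower (14.3, 20.7, 16.4 and 20.3% in either direction). In the library labelled Healthy the higher genes were 63.9% of those called, and 48.0% when the trimmed mean of M values (TMM) set the scale, in MTZ-treated it was 45.0%, 35.0% with TMM factors and 55.9% with equal weight for each barcode, and in MTZ-preventive 55.0%, 48.7% with TMM factors and 46.7% when mitochondrial, ribosomal and hemoglobin transcripts were kept out of the totals.

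Mgp, Prelp, Bgn and Ccn2, which code for matrix and matricellular proteins, were among the 20 highest genes against other stroma and were higher in each library. Mgp was 11535, 20999, 8691 and 8502 CPM in members, and 3316, 2691, 2612 and 2802 CPM in other stroma. This made 3.48-, 7.80-, 3.33- and 3.03-fold, with the AS members resting for 54.6% on 1 barcode, and 4.43-fold in AS and 1.76-fold in MTZ-preventive without the member that held the most UMIs. Prelp, a leucine-rich proteoglycan that anchors basement membranes, was 740, 501, 624 and 816 CPM against 160, 167, 187 and 150 CPM. Bgn, biglycan, was 3.198-, 3.83-, 2.42- and 2.92-fold higher, and Ccn2, the connective tissue growth factor induced by TGF-beta, 3.71-, 4.70-, 2.71- and 3.17-fold higher. Nupr1, a stress-response regulator, was 3.65-, 3.03-, 3.64- and 3.06-fold higher. Frzb, a secreted Wnt antagonist of cartilage and arteries, was 109, 480, 199 and 97.8 CPM against 9.27, 39.6, 12.03 and 13.5 CPM in other stroma.

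Other members of the matrix group differed by library. Fbn1 was 2.80-, 3.06- and 5.67-fold higher in the library labelled Healthy, MTZ-treated and MTZ-preventive but 0.526-fold (0.308 to 0.843) in AS. In the library labelled Healthy, 91 of the 152 Fbn1 UMIs were in member 2, and without it the ratio was 1.22-fold (0.932 to 1.58), and in MTZ-treated it was 1.78-fold (1.52 to 2.07) without member 28. Lox, which crosslinks collagen and elastin, was 3.46-, 4.75-, 4.44- and 2.03-fold higher, and Plod2, which hydroxylates collagen lysines, 2.43-, 4.81-, 3.27- and 2.14-fold higher. In AS these were 1.84-fold (1.01 to 3.11) for Lox without member 13 and 1.87-fold (0.860 to 3.66) for Plod2 without member 6. Timp1, an inhibitor of matrix metalloproteinases, was 2.09-, 1.83-, 7.71- and 3.08-fold higher. Vcam1, an adhesion molecule of activated vessel cells, was 3.41-, 2.67-, 9.38- and 2.18-fold higher. Among the highest genes also were Vcan (2.89-, 0.919-, 2.70- and 4.28-fold), Col12a1 (3.82-, 1.703-, 4.35- and 2.81-fold), Timp3 (2.82-, 1.28-, 3.32- and 2.05-fold), Loxl2, Fxyd5, Wls and Sulf1. In the library labelled Healthy, Vcan was 1.51-fold (0.774 to 2.67) and Col12a1 1.98-fold (1.22 to 3.07) without member 2. By list, at least 2-fold higher were 2 of 12, 5 of 11, 8 of 12 and 9 of 12 collagens outside the rule (4 of 12 with equal weight for each barcode in the library labelled Healthy), and 4 of 6, 3 of 3, 3 of 5 and 3 of 4 small leucine-rich proteoglycans. None of these collagens was at least 2-fold lower, and 0, 0, 1 and 1 of the proteoglycans were. Modulated smooth muscle genes were higher for 5 of 10, 3 of 12, 10 of 14 and 8 of 13 and lower for 1, 2, 1 and 2, with medians of 1.10, 0.63, 1.74 and 1.16 against 0.14, 0.16, 0.11 and 0.19 over all genes.

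Contractile smooth muscle genes were lower in members of the MTZ libraries, and less evenly so in the library labelled Healthy. At least 2-fold lower were 6 of 12, 1 of 6, 12 of 12 and 9 of 12, and none was 2-fold higher. The medians were -0.98, -0.27, -2.14 and -1.64. With equal weight for each barcode, 1 of 12 was lower in the library labelled Healthy (median -0.54), 8 of 11 in MTZ-treated and 4 of 10 in MTZ-preventive. Acta2, smooth muscle actin, was 5234, 1972, 1576 and 1374 CPM in members against 8470, 1521, 5559 and 5053 CPM in other stroma. The actin binding protein Tagln was 4469, 3486, 1019 and 1598 CPM against 8491, 1768, 7540 and 5105 CPM, with 66.7% of the AS UMIs in AS member 13, as were 68.6% of those of Acta2. Without that barcode AS members stood at 777 CPM of Acta2 and 1460 CPM of Tagln, under the other stroma. The myosin heavy chain Myh11 was 553, 117, 106 and 247 CPM against 1464, 311, 850 and 777 CPM. Members ranged widely, and the list took from 0 to 7.78% of UMIs per barcode in the library labelled Healthy (median 0.171%) and from 0 to 7.23% in MTZ-preventive (median 0.0631%). Set against other stromal barcodes with at least the UMIs of the lower quartile of members (medians of 8767.5, 1868, 4679.5 and 6397 UMIs), 12 of 13, 1 of 6, 12 of 12 and 12 of 12 were at least 2-fold lower. The shares over all genes were then 6, 8.51, 7.93 and 6.99% lower and 6.53, 10.7, 5.79 and 8.4% higher (12.5, 19.2, 13.7 and 15.4% in either direction).

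Complement genes were at least 2-fold lower for 1 of 5, 4 of 7, 6 of 7 and 4 of 7, and higher for 1 gene in the library labelled Healthy. Immediate early genes were lower for 3 of 12, 1 of 12, 8 of 11 and 7 of 12, and heat shock genes for 2 of 8, 0 of 7, 4 of 8 and 3 of 8 (5 of 8 with TMM factors in the library labelled Healthy). Nr4a1, an immediate early receptor, stood at 181, 213, 66.4 and 183 CPM against 643, 273, 351 and 736 CPM. Beside these, mitochondrial UMIs had medians of 1.90, 1.25, 1.62 and 1.64% in members and 2.55, 3.36, 1.81 and 3.28% in other stroma. Inflammatory and acute phase genes were lower for 0 of 4, 8 of 11, 3 of 8 and 9 of 11, and higher for 0, 1, 1 and 0.

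Adipocyte markers were at least 2-fold lower in members for 1 of 1, 4 of 4, 1 of 1 and 3 of 3 that reached 100 CPM. Cfd, adipsin, had 0 UMIs in members of the library labelled Healthy (139 CPM in other stroma, at least 8.95-fold lower), and was 256 against 6714 CPM in AS, 3.32 against 466 CPM in MTZ-treated and 28.3 against 3148 CPM in MTZ-preventive. The fatty acid carrier Fabp4 was 7.59-, 5.42-, 16.9- and 26.3-fold lower. C7, a complement component, had 0 UMIs in the first pair of libraries and was 17.8- and 7.31-fold lower in the MTZ libraries. The other genes lowest in the 3 libraries with at least 20 members were Gpx3, Tinagl1, Srgn, Mylk, Sparcl1 and Actg2. Gpx3, plasma glutathione peroxidase, was 18.9-, 6.58- and 6.43-fold lower there. In AS it was 501 against 490 CPM, but 41 of the 47 UMIs were in AS member 2, and without it 80.1 CPM remained in members (6.12-fold lower, 2.79 to 16.8).

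**Figure D5:**
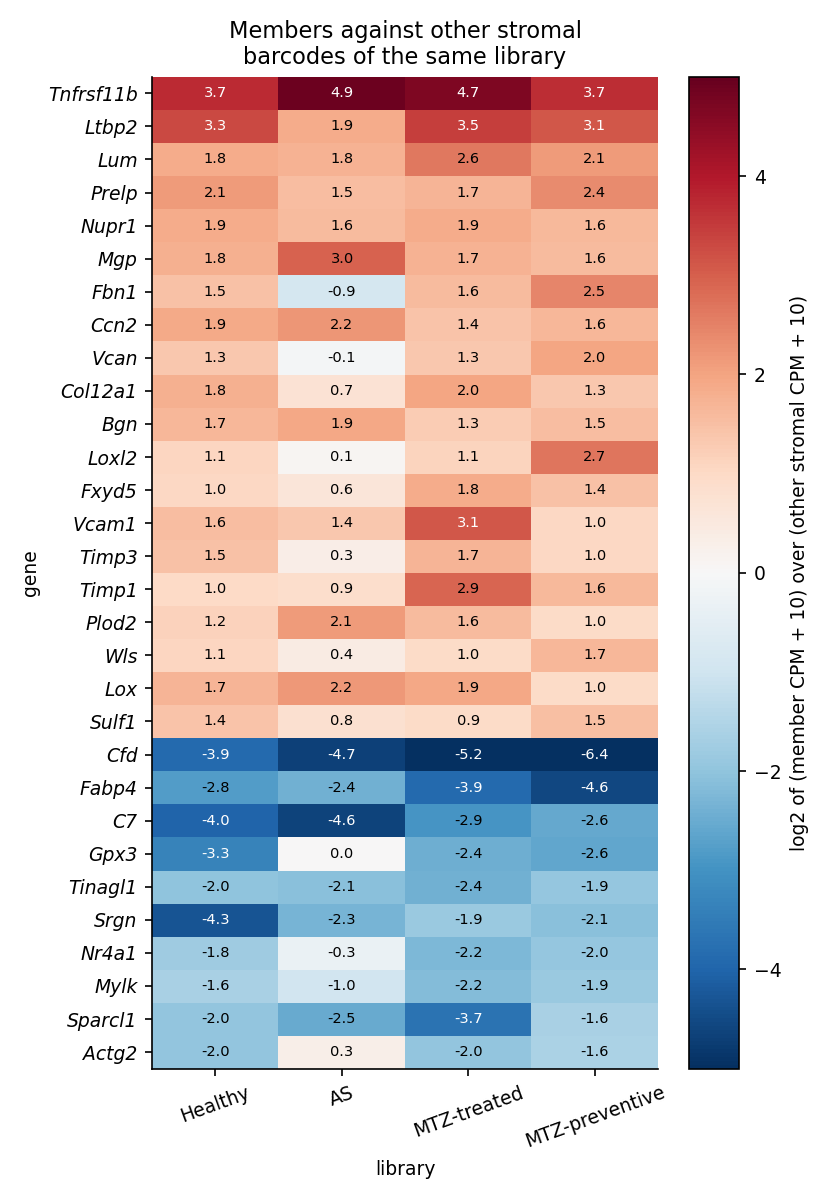
Heat map of the 20 highest and 10 lowest genes (y axis) of members against other stromal barcodes in the 4 libraries (x axis), as the log2 of CPM + 10 in members over CPM + 10 in other stroma. Mgp, Lum, Prelp, Bgn, Ccn2 and Nupr1 are red in all 4 columns, and AS differs from the rest for Fbn1 and Vcan, while its Gpx3 value rests on 1 barcode.

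Markers of other cell types were at low levels. Cdh5, C1qa and C1qb had 0 UMIs in the members of all 4 libraries. The 15 macrophage markers together stood at 25.9, 95.9, 63.1 and 72.1 CPM in members and 156, 733, 182 and 205 CPM in other stroma, led by Gpnmb, Lyz2, Csf1r and Gpnmb. The 10 endothelial markers stood at 150, 171, 69.7 and 118 CPM in members and 269, 622, 464 and 393 CPM in other stroma, with Eng or Egfl7 highest. The part of other cell types in the results was not tested. Cd79a, a B cell gene, had 0 UMIs in all libraries but MTZ-preventive, where 2 members held 11. Doublet calling marked 1 member in the library labelled Healthy and 1 in MTZ-preventive, and none in the others. Of fibroblast markers outside the rule, Pdgfra was found in 13 of 22, 5 of 16, 6 of 38 and 10 of 35 members, and Dpt in 20, 4, 19 and 15. The rule fixed the 5 fibroblast genes, all of which were present in 20, 9, 36 and 26 members.

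The osteoprotegerin system was otherwise hardly detected. Tnfsf11, the gene of RANKL, had 0, 0, 0 and 2 UMIs in members, its receptor Tnfrsf11a 1, 1, 0 and 0, and the TRAIL gene Tnfsf10 0 in all, which allows up to 15.5, 32.0, 9.96 and 7.72 CPM at 3 counts. Sdc1, a heparan sulfate proteoglycan that can hold osteoprotegerin at the cell surface, was 46.6, 171, 139 and 56.6 CPM, and the only gene of the list to reach 100 CPM. Of the osteopontin receptors, Cd44 was 62.1, 74.6, 139 and 347 CPM in members against 36.3, 73.0, 77.1 and 55.0 CPM in other stroma, so that in MTZ-preventive it was 6.32-fold higher (5.23 to 7.59), with 44.4% of the UMIs in 1 barcode. Itgb1, the integrin beta 1 chain, was 476, 597, 577 and 520 CPM, and Itgav 72.4, 32.0, 73.0 and 59.2 CPM. Of the osteopontin receptors, 1 of 5, 1 of 3, 1 of 5 and 1 of 5 were at least 2-fold higher than in other stroma, and 1 was lower in MTZ-treated.

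Genes of bone formation were few. Runx2, the master regulator of osteoblasts, had 0, 0, 1 and 4 UMIs, Sp7 0, 0, 0 and 1, Bglap 0, 0, 0 and 1, and Alpl 1, 3, 0 and 1. Ibsp, bone sialoprotein, had 38 UMIs, all in 1 AS member. Enpp1, which makes the calcification inhibitor pyrophosphate, was 31.0, 139, 103 and 30.9 CPM against 17.0, 20.9, 13.2 and 10.4 CPM in other stroma. It was 7.79-fold higher (5.00 to 11.8) in MTZ-treated, with UMIs in 15 of 38 members, and 6.64-fold (3.04 to 14.03) in AS. Sox9 was 51.7, 42.6, 153 and 108 CPM, against 25.8, 28.2, 34.5 and 41.7 CPM. The targets of the drug were not prominent. The 15 carbonic anhydrase genes summed to 15.5, 42.6, 49.8 and 54.0 CPM in members and 106, 732, 178 and 267 CPM in other stroma, where Car3, a gene of fat and muscle, led. In members Car3 had 0, 1, 0 and 2 UMIs.

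The comparison of MTZ-treated with AS asks how the cells stood after treatment began in established disease. Of 1670 genes, 8.38% were at least 2-fold higher and 9.76% at least 2-fold lower in MTZ-treated members (18.1% in either direction), and the higher genes made up 46.2% of these, or 62.7% with TMM factors, which moved the median of all genes from 0.17 to 0.34. Only 16 members and 93813 UMIs stood behind AS. The levels of the rule genes are set by the rule together with depth and are a description. Tnfrsf11b was 0.971-fold and Ltbp2 0.860-fold. Spp1 was 0.386-fold (0.370 to 0.403), and without AS member 2 the log2 ratio turned from -1.37 to 0.70. The direction of Spp1 thus rested on 1 barcode.

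Complement genes were at least 2-fold lower for 5 of 6 in MTZ-treated members, with a median of -1.58 against 0.17 over all genes. Immediate early genes were lower for 7 of 12 (median -1.14), but for 3 of 13 with equal weight for each barcode (median -0.77), and AS member 2 held 64.5% of the Fosb and 62.7% of the Junb UMIs of AS. Lower too were inflammatory and acute phase genes, for 5 of 8 with 2 higher (median -2.50). AS member 13 held 752 and AS member 6 held 321 UMIs of this list. Neither the list nor the level of Mt1 given below was recomputed without these barcodes, so both may rest on few of them. Collagens outside the rule were higher for 5 of 12 and lower for 0 (median 0.68). The median depth of members was 6088 UMIs in MTZ-treated and 1382 UMIs in AS. Mt1, a metallothionein, was 2217 against 10340 CPM (4.66-fold lower, 4.22 to 5.16), and Hp, haptoglobin, was 39.8 against 1013 CPM (25.4-fold lower, 13.9 to 51.0), with 85 of the 95 Hp UMIs of AS in 1 barcode. The same genes were lower in the other stroma of MTZ-treated, where Mt1 was 2124 against 13261 CPM and Hp 103 against 2392 CPM. Timp1 was 4347 against 1620 CPM (2.68-fold higher, 2.27 to 3.19), and Mgp was 2.42-fold lower (2.28 to 2.56), a log2 ratio of -1.27 that became -0.46 without AS member 2.

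The most different single genes were mostly found in few barcodes. Slurp1 had 203 UMIs in 13 of 38 MTZ-treated members and 0 UMIs in AS members (at least 21.1-fold higher), although other stroma of AS had 94.9 CPM. Crabp2, which carries retinoic acid, was 674 against 21.3 CPM (31.6-fold, 8.64 to 263), and Sfrp2, a Wnt antagonist, 899 against 42.6 CPM (21.1-fold, 8.14 to 78.0). The chondrocyte cytokine Cytl1 was 889 against 42.6 CPM, but 258 of the 268 UMIs were in MTZ-treated member 14 and without it the log2 ratio went from 4.09 to -0.22. Ccl2, a monocyte chemokine, was 773 against 74.6 CPM with 91.0% of the UMIs in 1 barcode. Also among the highest were Nqo1, Col5a3, Cst6, Tppp3 (9.21-fold, 3.86 to 28.8) and Aqp1. Among the lowest, Cxcl14 had 48 UMIs in 2 AS members and 0 in MTZ-treated, and Ibsp, Saa3, Cxcl13 and Ltc4s also had 0 there. Cfd (1 against 24 UMIs), Gpx3 (13.7-fold lower, 7.02 to 29.3) and Sfrp1 (1 against 13 UMIs) were also among the lowest. Without AS member 2 the log2 ratio of Gpx3 went from -3.46 to -0.95, and without MTZ-treated member 14 that of Nqo1 went from 3.62 to 1.46. Vcam1 was 969 against 384 CPM (2.53-fold, 1.78 to 3.68), a log2 ratio of 1.31 that turned to -0.57 when each barcode had equal weight and was 2.24 without the sets. Without the sets the log2 ratio of Cxcl13 went from -4.17 to -1.13.

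MTZ-preventive and MTZ-treated differ in the length of treatment and in its start, with the high-fat diet or after atherosclerosis was established. Length and start cannot be told apart. These libraries held the most members. Of 1644 genes, 6.33% were at least 2-fold higher and 3.22% lower in MTZ-preventive members, 9.55% in either direction (66.2% higher among these, 55.6% with TMM factors). Spp1 was 1848 against 15775 CPM (8.54-fold lower, 7.89 to 9.25), Tnfrsf11b 244 against 528 CPM (2.16-fold lower, 1.66 to 2.81) and Ltbp2 463 against 660 CPM (1.43-fold lower, 1.16 to 1.75). Barcodes with at least 10 Spp1 UMIs made up 11 of 35 members in MTZ-preventive and 20 of 38 in MTZ-treated, but 4 of 28 and 14 of 32 without the sets. Cartilage matrix genes were at least 2-fold lower for 3 of 4 and higher for 1. Col2a1 was 64.3 against 508 CPM (7.89-fold lower, 5.15 to 12.6). Without the sets Col2a1 stood at 34.2 against 517 CPM, and its log2 ratio went from -2.80 to -3.57, while equal weight for each barcode gave -0.70 and leaving out MTZ-treated member 14 gave -1.80. Acan was 36.02 against 209 CPM (5.80-fold lower, 3.22 to 11.2), and Col11a2 had 1 against 35 UMIs. Cytl1 was 84.9 against 889 CPM but rested on MTZ-treated member 14 as above, with a log2 ratio of 1.07 without it. Sox9 was 0.708-fold (0.455 to 1.10), which was not beyond counting error.

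Other genes lower in MTZ-preventive members were Fmod, fibromodulin, at 7.72 against 179 CPM (23.2-fold, 7.53 to 116), Ecrg4 at 92.6 against 959 CPM (10.4-fold, 7.31 to 15.1), Eln at 190 against 1268 CPM (6.66-fold, 5.18 to 8.66) and Vcam1 at 170 against 969 CPM (5.71-fold, 4.36 to 7.57). Of the Eln UMIs in MTZ-treated, 55.5% were in 1 barcode, and without the sets the Eln log2 ratio went from -2.67 to -3.32. Lcn2, lipocalin-2, was 72.1 against 710 CPM (9.86-fold lower, 6.63 to 15.2), with 70.1% of the MTZ-treated UMIs in 1 barcode. Slurp1 was 242 against 674 CPM (2.78-fold lower, 2.17 to 3.60), but with equal weight for each barcode the log2 ratio was 0.10.

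Complement genes were at least 2-fold higher for 4 of 6 in MTZ-preventive members (median 1.15 against 0.01 over all genes), and immediate early genes for 4 of 11, and none of these was 2-fold lower. Fibroblast markers outside the rule were higher for 3 of 7, but for 2 of 7 with TMM factors and 0 of 7 with equal weight for each barcode. Among the highest single genes, Irf7, a transcription factor of the interferon response, was 576 against 9.96 CPM (57.9-fold, 19.6 to 283) and was found in 6 of 35 members. Bst2, tetherin, was 1060 against 126 CPM (8.41-fold, 6.02 to 12.1), and the chemokine Cxcl9 had 43 UMIs in 4 members against 0 (at least 11.1-fold higher). Cd74, the invariant chain of antigen presentation, was 250 against 6.64 CPM, with 61.9% of the UMIs in 1 barcode. Ccl5, a chemokine of T cells and activated stroma, had 1229 UMIs, all in MTZ-preventive member 34, the deepest member with 44510 UMIs, and without it the log2 ratio went from 7.90 to -0.41. Has1, a hyaluronan synthase, was 298 against 39.8 CPM (7.496-fold, 4.13 to 14.9), and Rbp4, retinol binding protein, 234 against 29.9 CPM (7.84-fold, 3.95 to 17.7). Apod, Pcp4 and Ltc4s were also among the highest, and 66.5% of the Apod UMIs were in 1 member.

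MTZ-treated members were also set beside those of the library labelled Healthy, with the Apoe level above in mind. Of 1787 genes, 9.51% were at least 2-fold higher and 15.9% lower in MTZ-treated (25.4% in either direction), so that 37.4% of these were higher, against 53.9% with TMM factors, which moved the median of all genes from 0.02 to 0.23. Tnfrsf11b was 1.42-fold (1.07 to 1.90) and Ltbp2 1.32-fold (1.03 to 1.70). Spp1 had 4754 UMIs against 0 and was at least 1017-fold higher. Modulated smooth muscle genes were at least 2-fold higher for 9 of 15 and lower for 1 (median 1.88 against 0.02 over all genes). Timp1 was 4347 against 228 CPM (19.1-fold, 14.1 to 26.4), Lgals3 1311 against 25.9 CPM (50.7-fold, 21.5 to 157) and Vcam1 969 against 140 CPM (6.94-fold, 4.67 to 10.7). Slurp1 (203 against 2 UMIs), Ecrg4 (289 against 5), Ddit4l (66 against 1) and Cytl1 were also higher, the last with a log2 ratio of 5.14 that became 0.82 without MTZ-treated member 14. Without that barcode the log2 ratio of Ddit4l went from 3.92 to 1.96 and that of Col2a1 from 5.69 to 4.698. Lcn2, Crabp2 and Col2a1 had 0 UMIs in the library labelled Healthy.

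Fibroblast markers and genes of the elastic matrix were lower in MTZ-treated members than in those of the library labelled Healthy. At least 2-fold lower were 8 of 10 fibroblast markers outside the rule (median -1.71) and 7 of 14 LTBP, TGF-beta and microfibril genes (median -1.12). Contractile genes were lower for 11 of 11 (median -2.12), but for 1 of 10 with equal weight for each barcode (median -0.82), and none of the 3 lists held a gene 2-fold higher. Eln was 1268 against 5147 CPM (4.06-fold lower, 3.60 to 4.58), and Mfap4, a microfibril protein, 110 against 2364 CPM (21.6-fold lower, 15.2 to 31.7). Rbp4 was 29.9 against 1764 CPM (59.1-fold lower, 30.8 to 130), Ccn5, a matricellular protein of quiescent smooth muscle, 123 against 2095 CPM (17.1-fold lower, 12.2 to 24.6) and Crispld2 16.6 against 543 CPM (32.7-fold lower, 13.6 to 103). F3, tissue factor, had 0 against 85 UMIs (at least 44.2-fold lower) and Angptl7 0 against 31 (at least 16.1-fold lower). Cpxm2 and Ndufa4l2 had 1 UMI each in MTZ-treated, against 39 and 35.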

How the data were processed

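Single-cell RNA sequencing of pooled aortas was made by the authors with the 10x 5' kit. The authors deposited raw counts of UMIs per gene and barcode; the matrix header names Cell Ranger 5.0.0 and the submitters' processing notes name STAR and mm10. Lines that shared a symbol (38 symbols) were summed. Members followed the rule in the text; members and gene lists were chosen with earlier results of these data known. Counts were summed over barcodes and given as CPM with exact Poisson intervals, ratios with exact conditional binomial intervals and shares with Clopper-Pearson intervals, and no test was made with 1 library per group. A gene was called when its CPM + 10 differed at least 2-fold, with at least 100 CPM on either side. A group at 0 was given a floor of 3 counts. Genes were named if they belonged to the rule or to 36 lists, as was Apoe, together with the 20 highest and 10 lowest by CPM + 10 against other stroma (at least 100 CPM in every library with at least 20 members) and, for each pair of libraries, the extreme 10 in either direction, without immunoglobulin, T cell receptor, mitochondrial and unnamed genes. Between libraries, MTZ-preventive against MTZ-treated and MTZ-treated against the library labelled Healthy were added after the data were seen. MTZ-preventive against AS and AS against the library labelled Healthy were planned for at least 20 members in both libraries, and AS had 16; the plan set no such minimum for MTZ-treated against AS, which was run on the same 16 members. The steps were tested on simulated data. Python 3.11.15 was used with numpy 2.4.6, pandas 2.3.3, scipy 1.17.1, scanpy 1.11.5 for doublets (the top 0.8% per 1000 barcodes) and matplotlib 3.10.9. TMM factors, the only use of edgeR (4.0.16), came from R 4.3.3. Of the lists, 2 genes were not used here, since the files have no line under their symbols, and the receptor libraries entered only the closing values. A gene that the rule would name is not reported here.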

Additional observations from a re-analysis of the deposited data

How the results depend on the processing

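With 1 library per group, replicates could not be left out. No paired analysis was possible because each group had 1 gene expression library. Alternatives on sets, on 1 barcode (those beside the members with and without Spp1 included), on other stroma with a minimum of UMIs and on Spp1 at 10 UMIs were chosen after seeing the data. The share of members in the library labelled Healthy (0.753%) became 0.318% with more than 500 UMIs and under 20% mitochondrial UMIs, 0.316% over all deposited barcodes, 1.16% with at least 1 and 0.239% with at least 4 UMIs of Spp1 and Ltbp2, 0.0333% after thinning, 0.178% of all passing barcodes and 0% with Spp1 at 10 UMIs. In AS (2.94%) it became 1.65% with at least 2 Tnfrsf11b UMIs, 1.62% thinned, 0.727% of passing barcodes and 1.65% with Spp1 at 10 UMIs. In MTZ-treated (1.40%) the looser limits gave 0.506%, all deposited barcodes 0.505%, 2 Tnfrsf11b UMIs 0.957%, thinning 0.470%, passing barcodes 0.527% and Spp1 at 10 UMIs 0.736%. In MTZ-preventive (0.632%) 2 Tnfrsf11b UMIs gave 0.271%, at least 3 of the 5 fibroblast genes 0.891%, thinning 0.136%, passing barcodes 0.215% and Spp1 at 10 UMIs 0.199%. The percent of genes at least 2-fold higher and lower in MTZ-treated against AS (8.38 and 9.76%) became 12.8% higher with TMM factors, 15.7 and 22.3% with equal weight per barcode, 18.7% higher in members without UMIs of Lyz2, Cd68, C1qa, Cdh5 and Cd79a, and 21.2 and 31.8% thinned. In MTZ-preventive against MTZ-treated (6.33 and 3.22%) equal weight gave 6.05% lower, a rule on Ltbp2 alone 1.98% lower, and thinning 18.8 and 18.4%. Thinning gave 25.4 and 28.1% in MTZ-treated against the library labelled Healthy (9.51 and 15.9%). Against other stroma, the library labelled Healthy (9.12 and 5.16%) gave 15.5% higher with equal weight and 32.0 and 12.6% thinned, MTZ-treated (7.38% higher) 20.7% thinned, and MTZ-preventive (11.2% higher) 16.8% at 300 CPM and 24.9% thinned. Thinning leaves fewer UMIs behind each level. Of the log2 ratios of named genes that were at least 2-fold, 2237 recomputed values stayed at least 2-fold in the same direction, 76 fell under it and 18 changed sign. Against AS in MTZ-treated these were Vcam1 (1.31 to -0.57 with equal weight and -1.23 thinned), Sox9 (1.63 to -0.43 and -0.48), Mfap4 (-1.76 to 0.44 and 4.28, and 3.70 without UMIs of the 5 genes), Sfrp1 (-3.48 to 0.45 without those UMIs), Aqp1 (2.98 to -0.997 thinned), Spp1 (-1.37 to 0.70 without AS member 2) and Cytl1 (4.09 to -0.22 without MTZ-treated member 14). In MTZ-preventive against MTZ-treated they were Slurp1 (-1.44 to 0.10 with equal weight and 0.47 thinned), Cytl1 (-3.24 to 1.07 without MTZ-treated member 14) and Ccl5 (7.90 to -0.41 without MTZ-preventive member 34). Against other stroma, thinning turned Loxl2 from 1.08 to -0.23 in the library labelled Healthy and from 1.13 to -0.47 in MTZ-treated, and Actg2 from -1.59 to 0.43 in MTZ-preventive. Depth limits AS most, where 0 UMIs in members allow up to 32.0 CPM.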

Other observations

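Contigs of B cell receptors were listed for 1 of 22 members of the library labelled Healthy and 2 of 35 of MTZ-preventive, and contigs of T cell receptors for 1 of 35 of MTZ-preventive, with 0 in the members of AS and MTZ-treated. Among other stromal barcodes, B cell receptor contigs were listed for 8.14, 0.756, 0.560 and 3.16% and T cell receptor contigs for 0.827, 0, 0.112 and 0.418%. Cell cycle genes summed to 31.0, 85.3, 79.6 and 129 CPM in members, in the order of the libraries above, and to 123, 86.6, 79.4 and 120 CPM in other stroma. Of the osteoclast markers, Ctsk, a collagen-degrading protease that fibroblasts also make, was the most abundant in all 4 libraries. The list summed to 197, 256, 372 and 273 CPM in members against 152, 173, 202 and 134 CPM in other stroma. In AS, member 6 alone held 14 UMIs of the list, so the higher AS value rested on 1 barcode.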
